A study of Mus musculus with 6 samples.

Results

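FXR binding at the cytochrome P450 genes of drug and steroid metabolism was described from ChIP-seq peak lists of male mouse liver. A peak was taken when the gene given to it by the authors had a name of Cyp followed by a digit. The bile acid and cholesterol genes Cyp7a1, Cyp8b1, Cyp27a1, Cyp7b1, Cyp39a1, Cyp2c70 and Cyp51 and all genes of the Cyp4a group were left out. This gave 103 of the 20040 peaks in the control list, at 50 genes, and 49 of the 12495 peaks in the knockout list, at 33 genes. In all, 52 genes had a peak, of which 31 had one in both lists, 19 in the control list only and 2 in the knockout list only.

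All mice were male C57BL/6 and carried Bcl6fl/fl alleles, in which loxP sites flank part of the Bcl6 gene. Controls had no Cre and are written WT. Knockouts also carried Alb-cre, which is driven by the albumin promoter and so acts in hepatocytes, and are written LKO. Other liver cells keep Bcl6 in LKO mice, ages were not given in the sources used here, and the labels do not say how many animals a library came from. WT and LKO were each measured in 2 libraries made with the FXR antibody and in 1 input, meaning chromatin sequenced without it. The peak lists hold no transcript levels, so the deletion and the cell makeup of the livers were not checked.

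Cytochrome P450 enzymes are haem proteins that add oxygen to drugs, toxins, steroids, retinoids and fatty acids, and the liver holds most of the drug-metabolizing forms. Many lie in clusters of near-identical neighbours that arose by gene duplication. FXR is a nuclear receptor activated by bile acids, and its classical site is an inverted repeat of the half-site AGGTCA with 1 base between the repeats, called IR1. BCL6 is a transcriptional repressor that recognizes elements much like those of STAT5.

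Sequences are shown first for Cyp2c38 and Cyp2c39, neighbours in the Cyp2c group of drug and fatty acid metabolizing enzymes, because near-identical sites there had unlike levels. They were chosen after their values were seen. A peak lay 1152 bp upstream of the Cyp2c38 TSS and another 1137 bp upstream of the Cyp2c39 TSS, and both were in both lists. Each held an IR1 match with 2 mismatches in the 12 scored bases. The segments centred on these matches, chr19:39464186-39464286 on the plus strand and chr19:39509642-39509742 on the minus strand (mm10), are printed to show that the matches, in capitals, were identical. The segments differed at 3 bases, all outside the match.
Cyp2c38: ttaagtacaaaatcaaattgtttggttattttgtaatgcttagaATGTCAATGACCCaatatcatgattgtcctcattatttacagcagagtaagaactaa
Cyp2c39: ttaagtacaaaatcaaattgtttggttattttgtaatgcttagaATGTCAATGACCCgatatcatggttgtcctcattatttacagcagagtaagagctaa

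The IR1 matches closest to the consensus at peaks named below are shown next, 29 bases each with the 13-base match in capitals, on the plus strand. Cyp2u1 lay on chromosome 3 (131308037 to 131308049), 4803 bp upstream of its TSS, and Cyp2d40 on chromosome 15 (82763911 to 82763923), in intron 1. Both had 1 mismatch, as did 1 other P450 peak, at Cyp26b1 and in WT only. A mismatch is written as the consensus base, its position from the left end of the match, and the base found. It was A10T at Cyp2u1 and G2A at Cyp2d40.
Cyp2u1: agtcaaacAGGTCAGTGTCCTacaaccag
Cyp2d40: acaccactAAGTCACTGACCTtgtaaaag

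At the strongest shared peaks of Cyp26a1 and Cyp2d26 the closest IR1 stretch had 4 mismatches, and at that of Cyp3a11 it had 3. At those of Cyp2u1, Cyp2c39 and Cyp3a16 it had 2. The 2 strongest P450 peaks and the exonic Cyp2f2 peak also had 2 mismatches. They were chosen after their values were seen and are shown because their levels are given below, at Cyp3a25 (chromosome 5, 146021396 to 146021408, C5T and T13A), Cyp2c67 (chromosome 19, 39644721 to 39644733, A1C and C5G) and Cyp2f2 (chromosome 7, 27133318 to 27133330, T4A and T8C).
Cyp3a25: acatccaaAGGTTACTGACCAccactcag
Cyp2c67: tagcctgtCGGTGACTGACCTgagctcgt
Cyp2f2: ggatcctgAGGACATCGACCTgaccccgc

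At the promoters of Cyp3a25, Cyp3a57 and Cyp3a59 the match was to another element, the direct repeat of AGGTCA with 1 base between (DR1), which HNF4A and RXR dimers bind. Each of the 3 had the mismatch G3C and the same 13 bases. They lay at chr5:146009789-146009801 on the minus strand, chr5:145345088-145345100 on the plus strand and chr5:146079074-146079086 on the plus strand. All 3 peaks were in the WT list only. DR1 matches with 1 mismatch were also at Cyp2j5, 1121 bp upstream and in both lists, and at Cyp4f17, in WT only.
Cyp3a25 promoter: agaatataAGCTCAAAGGTCAgagtaaga
Cyp3a57 promoter: agaatataAGCTCAAAGGTCAgagtaggg
Cyp3a59 promoter: agaatataAGCTCAAAGGTCAgagtaaaa

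Depth bears on every value. The first WT ChIP library held 19022618 tags and the second 2883717, while those of LKO held 21287263 and 22637613. WT replicate 1 gave 86.8% of the pooled WT tags, and the authors pooled the libraries of a genotype to call peaks, so a peak count has no replicate spread. Among the P450 peaks the pooled ChIP libraries held from 20 to 360 tags in WT, with a median of 56.96, and from 39.0 to 332 in LKO, with a median of 76.9. A locus absent from a list has no value there, so its level in the other genotype is not known.

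Subfamilies differed in how many of their WT peaks recurred in LKO. Over all P450 peaks, 40 of 103 in WT were overlapped by an LKO peak, or 38.8% (95% Wilson interval 30.0 to 48.5%), where 49.5% of all WT peaks were. In LKO, 40 of 49 were overlapped by a WT peak, or 81.6% (68.6 to 90.02%), where 79.4% of all LKO peaks were. The LKO share thus lay near that of the whole list, and the interval of the WT share ended below it. Intervals cover counting error over peaks, and neighbouring peaks of duplicated genes are not independent.

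Of the 10 WT-list peaks of Cyp2c, 4 recurred in LKO, as did 10 of 17 of Cyp2d and 8 of 21 of Cyp3a, the main group of drug-metabolizing P450s. So did 2 of 4 Cyp2b peaks, 1 of 9 Cyp2a peaks, 1 of 7 Cyp4f peaks and 0 of 3 Cyp1a peaks. The remaining subfamilies together kept 14 of 32. With 3 to 21 peaks per group, these shares were not tested against each other.

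**Figure D1:**
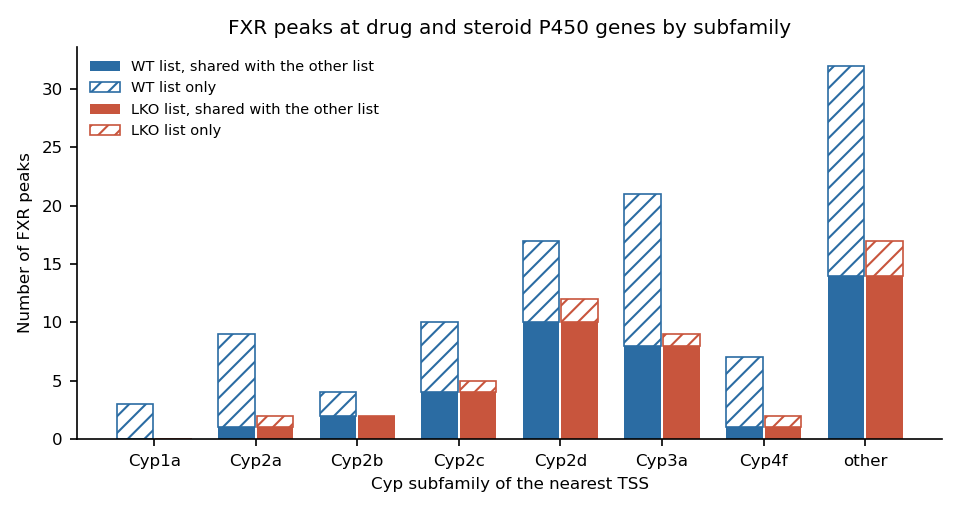
Number of FXR peaks (vertical axis) by Cyp subfamily of the nearest TSS (horizontal axis), in WT (blue) and LKO (red), split into peaks shared between lists (filled) and in 1 list only (hatched). Cyp3a had 21 WT and 9 LKO peaks, Cyp2d had 17 and 12, and Cyp1a had 3 and 0.

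The recurrence followed peak strength. Strength was the mean log2 value of both ChIP libraries, given as a percentile among all peaks of the same list. Above the 75th percentile of the WT list 24 of 28 P450 peaks were shared, or 85.7% (68.5 to 94.3%), against 90.3% of all peaks in that range. Between percentiles 50 and 75 it was 10 of 27, or 37.0% (21.5 to 55.8%), against 60.7%. Between percentiles 25 and 50 it was 3 of 25, or 12% (4.17 to 29.96%), against 33.05%, and among the weakest 25% it was 3 of 23, or 13.04%, against 13.9%. Between percentiles 25 and 75 the intervals for P450 peaks ended below the values for all peaks. In LKO, 10 of 10 P450 peaks between percentiles 50 and 75 and 15 of 15 above were shared, where 88.2% and 96.5% of all peaks in these ranges were.

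The P450 peaks were not placed apart from other peaks in strength. Their median percentile was 54.6 in WT and 56.6 in LKO, and 10 of 103 and 4 of 49 lay in the strongest 10% of the list, or 9.71% (5.36 to 17.0%) and 8.16% (3.22 to 19.2%). In WT the medians by subfamily ran from 10.9 for Cyp1a and 32.6 for Cyp2a through 46.4 for Cyp2b and 48.6 for Cyp3a to 61.7 for Cyp2c, 64.5 for Cyp2d and 65.6 for Cyp4f. In LKO, Cyp3a had 69.3, Cyp2b 61.7, Cyp4f 55.8, Cyp2a 49.4, Cyp2c 43.1 and Cyp2d 36.1. The order of Cyp3a and Cyp2d was thus reversed between the lists, over 21 and 17 peaks in WT and 9 and 12 in LKO. These medians are over different peaks, since 13 of the 21 Cyp3a and 7 of the 17 Cyp2d peaks were in WT only. The reversal is thus not a measured change at the same peaks.

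**Figure D2:**
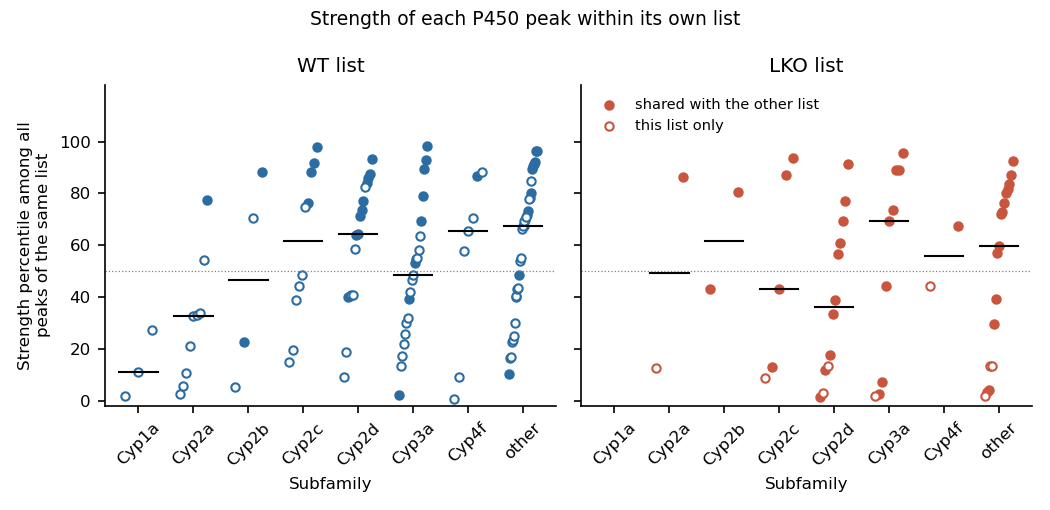
Strength percentile of each P450 peak within its own list (vertical axis) by subfamily (horizontal axis), filled when shared with the other list and open when in 1 list only. Black bars are medians, and points of a subfamily are spread sideways in order of strength only so that they can be seen. The Cyp1a median in WT was 10.9, and Cyp1a had no LKO peak.

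Levels at shared peaks were set across genotypes as relative levels, the log2 value of a peak less the median of all shared peaks in the same library. A relative level of 1 means a value 2-fold above the median shared peak, and a change common to all shared peaks cannot be seen on this scale. The genotypes were normalized in separate tables with 2 libraries each, so no test between them was run. The authors' values also draw low counts towards each other. A level less input rests on 1 input library per genotype. On that scale some of the differences given below kept their direction, and others overlapped or turned. Over the 40 shared P450 pairs the median difference, LKO minus WT, was -0.20, with quartiles of -0.49 and 0.21 and extremes of -1.47 and 1.68. The median SD between libraries of a genotype was 0.22. Over all 9918 shared pairs the median difference was 0.03. The median over the P450 pairs was -0.095 in the 34 pairs without high input, -0.092 in the 25 pairs at or above the median strength in both lists, and -0.11 without LKO replicate 1.

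Both LKO libraries lay below both WT libraries at 16 of the 40 pairs (40.0%), where 25.2% of all shared pairs did. Both lay above at 7 of 40 (17.5%), where 29.8% of all pairs did. The other 17 overlapped. With WT replicate 2 left out because of its depth, the counts were 19 below and 11 above, or 47.5% and 27.5%, against 35.3% and 41.1% of all pairs. Taking levels relative to the median of all peaks shifted the median of all shared pairs to -0.45 and gave 29 below and 3 above, or 72.5% and 7.50%, against 58.3% and 9.43% of all pairs. With the deposited values and no reference, the counts were 21 below and 4 above, and the median of all shared pairs was -0.30.

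**Figure D3:**
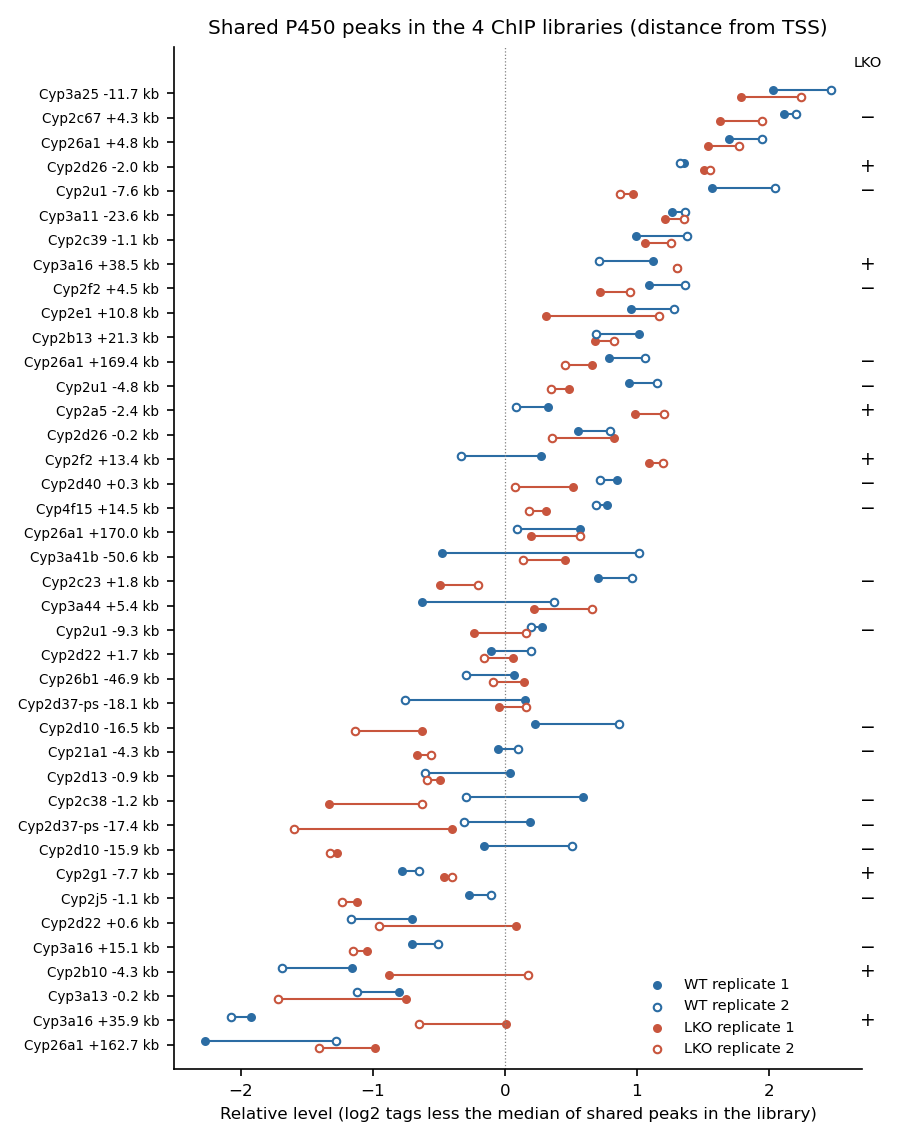
Relative levels (horizontal axis, log2) of the 40 shared P450 peaks in the 4 ChIP libraries, ordered by their mean, with the gene and distance from its TSS on the vertical axis. Lines join the libraries of a genotype, and + or − at the right marks peaks with both LKO libraries above (7) or below (16) both WT libraries.

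The strongest P450 peak in both lists was 11741 bp upstream of Cyp3a25, a member of the Cyp3a group. Its relative level was 2.03 and 2.47 in the WT libraries and 1.79 and 2.24 in the LKO libraries. The genotypes overlapped, with means of 2.25 ± 0.31 and 2.02 ± 0.32 (SD, n = 2), and the peak stood at percentiles 98.1 and 95.4.

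The next was in intron 1 of Cyp2c67, a Cyp2c gene. It had 2.12 and 2.21 in WT and 1.63 and 1.94 in LKO. The LKO libraries were the lower ones, by -0.37, which was above the pooled SD of 0.16. The input value there was 2.51 in LKO, among the highest 5% of that list, and 1.21 in WT.

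At Cyp3a11, the most abundant drug-metabolizing Cyp3a of mouse liver and a target of the xenobiotic receptor PXR, the peak 23624 bp upstream had 1.27 and 1.36 in WT and 1.21 and 1.36 in LKO. The difference was -0.03 and the libraries overlapped. Of the 6 WT peaks of Cyp3a11, only this one recurred. The 5 others, at 31968, 29079, 20726 and 1519 bp upstream and 12263 bp downstream of the TSS, had WT percentiles from 17.3 to 58.0.

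Cyp3a16, a form best known from fetal liver, had 5 WT and 4 LKO peaks. Its peak 38529 bp downstream, past the end of the gene, had 1.12 and 0.72 in WT and 1.30 and 1.31 in LKO. The LKO libraries lay above by 0.39 (pooled SD 0.20), but the difference was -0.091 with levels taken relative to all peaks. Its input value was 1.13 in WT and 1.73 in LKO. Less input, its log2 values were 5.01 and 5.12 in WT and 4.62 and 4.43 in LKO. The peak 35916 bp downstream had -1.92 and -2.08 in WT and 0.01 and -0.65 in LKO. Its difference of 1.68 (pooled SD 0.34) was the highest of the 40 pairs, and the percentile was 2.08 in WT and 44.3 in LKO. The lowest relative level of any peak in the LKO list, as a mean of both libraries, was -1.66. Both WT values at this peak lay below that, so once it was in both lists its difference could only be positive. The sign is thus not informative, while the LKO mean of -0.32 lay above that lowest level. The peak in intron 7 went the other way, from -0.70 and -0.51 to -1.04 and -1.15.

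The other Cyp3a genes had no peak as strong as the strongest peak of Cyp3a25, Cyp3a11 or Cyp3a16. Cyp3a44 and Cyp3a41b, forms known to be higher in female liver, had 1 shared peak each, with overlapping libraries. The peak given to Cyp3a41b lay 50648 bp upstream, in the body of Cyp3a63-ps, so its gene name follows the nearest TSS only. At Cyp3a41b the WT libraries were -0.48 and 1.02, and the WT input was 2.28, in the highest 5% of the list. The Cyp3a13 promoter peak had -0.80 and -1.12 in WT and -0.75 and -1.72 in LKO. Cyp3a57 and Cyp3a59 had WT peaks only, 1 and 2 of them.

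**Figure D4:**
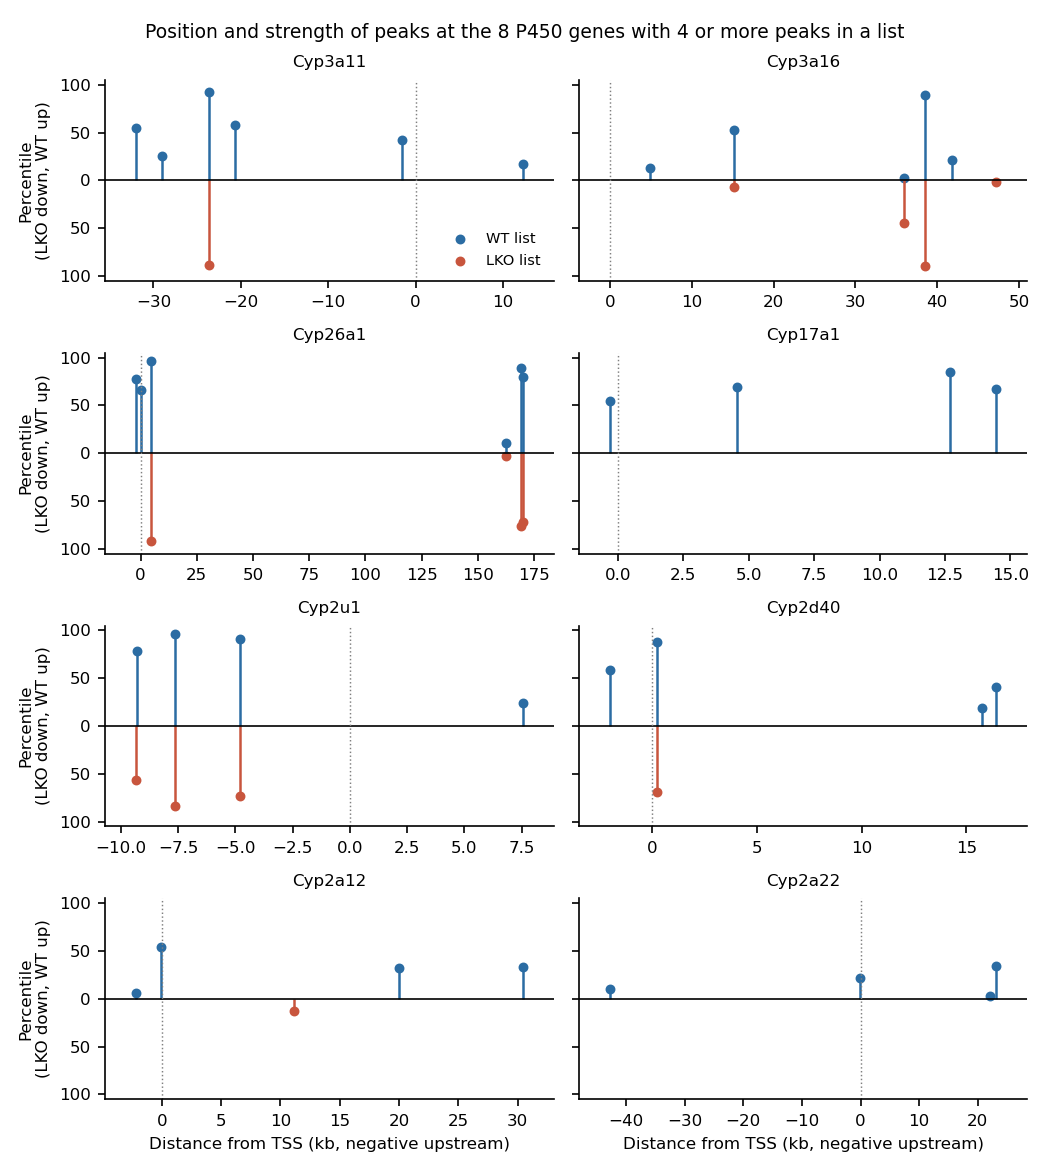
Distance from the TSS in kb (horizontal axis) and strength percentile (vertical axis, WT upward in blue, LKO downward in red) of the peaks at the 8 P450 genes with 4 or more peaks in a list. Cyp3a11 had 6 WT peaks and 1 LKO peak, and Cyp17a1 had 4 and 0.

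Cyp2c38 and Cyp2c39, whose sites are printed above, differed in relative level and in their LKO values. Cyp2c38 had 0.59 and -0.29 in the WT libraries and -1.33 and -0.63 in the LKO libraries. Both LKO libraries were the lower ones, by -1.13 (pooled SD 0.56), and the percentile went from 76.3 to 13.1. Its input value was 1.09 in WT and -0.18 in LKO. Less input, its log2 values were 4.52 and 4.15 in WT and 3.89 and 4.39 in LKO, which overlapped. Cyp2c39 had 0.99 and 1.38 in WT and 1.06 and 1.26 in LKO, which overlapped, with a difference of -0.02 (pooled SD 0.22) and percentiles of 91.8 and 87.3. Its input value was 1.84 in WT and 2.49 in LKO. Less input, its log2 values were 4.17 and 5.08 in WT and 3.61 and 3.62 in LKO. On that scale LKO was thus the lower at Cyp2c39 and not at Cyp2c38. The sites lie 45.5 kb apart. Both peaks fell in the RefSeq body of Cyp2c39, so the name Cyp2c38 follows the nearest TSS only. Reads were kept only where they aligned uniquely, and how many reads of these like segments were lost was not tested.

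Cyp2c39 also had a WT-only peak in intron 5, with 0.01 and 0.16 and percentile 74.7. The other shared Cyp2c peak was in intron 1 of Cyp2c23, an arachidonic acid epoxygenase. It had 0.71 and 0.96 in WT and -0.49 and -0.20 in LKO, a difference of -1.18 (pooled SD 0.19). Cyp2c29, a major hepatic Cyp2c, had 2 WT peaks and 1 LKO peak, none shared. Its LKO peak was at the promoter, 115 bp upstream, and its WT peaks were 1249 bp upstream and 60172 bp downstream.

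In the Cyp2d group, whose human counterpart metabolizes many common drugs, levels differed in both directions. Upstream of Cyp2d10 were a pair of peaks. The one 16500 bp upstream had 0.23 and 0.86 in WT and -0.63 and -1.14 in LKO. The one 15876 bp upstream had -0.16 and 0.51 in WT and -1.27 and -1.33 in LKO, and its difference of -1.47 (pooled SD 0.34) was the lowest of the 40 pairs. Its LKO mean of -1.30 lay near the lowest level of that list, at percentile 1.55, where the 5th percentile was -1.14. Its input value was 2.28 in WT, in the highest 5% of the list, and -0.22 in LKO. Less input, its log2 values were 2.57 and 3.76 in WT and 3.99 and 3.74 in LKO, which overlapped. At the peak 16500 bp upstream they were 4.14 and 5.29 in WT and 4.58 and 3.87 in LKO, which also overlapped.

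The pseudogene Cyp2d37-ps had a like pair. The peak 17408 bp upstream had 0.19 and -0.31 in WT and -0.40 and -1.60 in LKO, and the one 18087 bp upstream had overlapping libraries. The peak 16500 bp from Cyp2d10 and the one 17408 bp from Cyp2d37-ps were 81.3% identical over 150 bases. Cyp2d26 stood apart from these. Its peak 1955 bp upstream had 1.36 and 1.33 in WT and 1.51 and 1.55 in LKO. The LKO libraries lay above by 0.19 (pooled SD 0.03), and the difference became -0.29 relative to all peaks. Its promoter peak, 154 bp upstream, had 0.55 and 0.80 in WT and 0.83 and 0.36 in LKO, which overlapped.

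The Cyp2d40 peak with the IR1 match printed above had 0.85 and 0.72 in WT and 0.51 and 0.08 in LKO, a difference of -0.49 (pooled SD 0.23). The 3 other Cyp2d40 peaks were in WT only. Cyp2d9, a male-predominant steroid hydroxylase of mouse liver, had 1 WT peak, 2203 bp upstream, at percentile 82.5 and with no LKO peak overlapping it. The nearest LKO peak was 26493 bp away.

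Cyp2a5, the coumarin and nicotine hydroxylase, had its only peak 2432 bp upstream. It had 0.32 and 0.08 in WT and 0.99 and 1.21 in LKO, and both LKO libraries lay above, by 0.89 (pooled SD 0.16). Its input value was -0.29 in WT and 0.14 in LKO. Less input, its log2 values were 5.63 and 5.91 in WT and 5.89 and 5.92 in LKO, which overlapped. Cyp2a12 and Cyp2a22, the other Cyp2a genes with peaks, had 4 WT peaks each. None overlapped an LKO peak, and the strongest of the 8, at the Cyp2a12 promoter, had percentile 54.4.

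Cyp2b10, the classical phenobarbital-inducible target of the receptor CAR, had 2 weak WT peaks. The one 2233 bp upstream was in WT only, with -1.41 and -2.43, at percentile 5.16. The one 4299 bp upstream was shared. It had -1.16 and -1.68 in WT and -0.88 and 0.18 in LKO. The LKO libraries lay above by 1.07, with a pooled SD of 0.59 and an LKO replicate 1 close to the WT values. The WT mean of -1.42 lay below the 5th percentile of the LKO list, -1.14. Presence in both lists thus made a positive sign likely, and the sign says little. Less input, the log2 values were 4.37 and 4.37 in WT and 4.25 and 5.11 in LKO, which overlapped. Cyp2b13, a female-predominant gene, had a peak in intron 4 with 1.02 and 0.69 in WT and 0.68 and 0.83 in LKO, which overlapped. Its LKO input was 2.47 and its WT input -0.20.

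The Cyp1a genes, which are induced by aryl hydrocarbons and metabolize caffeine and polycyclic compounds, had the lowest median strength of the subfamilies in WT. Cyp1a2 had a promoter peak at percentile 1.67 with 31.1 pooled tags and a peak 12637 bp downstream at percentile 10.9. Cyp1a1 had 1 peak, 1706 bp upstream, at percentile 27.1. None was in the LKO list.

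Cyp4f enzymes hydroxylate leukotrienes and long-chain fatty acids. The 1 shared Cyp4f peak was 14541 bp downstream of the Cyp4f15 TSS, annotated to intron 8 in WT and to exon 9 of another transcript in LKO. It had 0.78 and 0.69 in WT and 0.31 and 0.18 in LKO, a difference of -0.49 (pooled SD 0.08). The strongest Cyp4f peak in WT was in exon 3 of Cyp4f15, with 0.72 and 0.96 and percentile 88.2. It was in WT only, although it outranked the shared peak of the same gene at 86.7. The LKO list instead held a Cyp4f15 promoter peak, with -0.55 and -0.10, at percentile 44.1. Peaks given to Cyp4f17 lay in the body of Cyp4f39, and the peak given to Cyp4f14 lay in the body of Cyp4f13, so their gene names follow the nearest TSS only.

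Among steroid and retinoid enzymes, Cyp17a1, the steroid hydroxylase and lyase of androgen synthesis, had 4 WT peaks and no LKO peak. Their WT levels were 0.83 and 0.37 at 12704 bp downstream, -0.06 and -0.17 at 4538 bp, -0.60 and 0.22 at 14460 bp and -0.63 and -0.47 at the promoter. All 4 were above the median strength of the WT list, with percentiles from 55.0 to 84.9. The nearest LKO peaks were 12171 to 23643 bp away. The input value of the 4538-bp peak was 2.28, in the highest 5% of the list.

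Cyp26a1, which degrades retinoic acid, had 6 WT and 4 LKO peaks, and all 4 were shared. The peak 4775 bp downstream, past the gene, had 1.70 and 1.95 in WT and 1.54 and 1.77 in LKO, which overlapped. The LKO input there was 3.01. The peak 169360 bp away had 0.79 and 1.06 in WT and 0.66 and 0.46 in LKO, with an LKO input of 3.36. The promoter peak, at 0.23 and -0.69, and the one 1928 bp upstream, at 0.14 and 0.30, were in WT only. Cyp21a1, the adrenal steroid hydroxylase gene, had 1 peak, at the end of the neighbouring C4a gene. It had -0.05 and 0.10 in WT and -0.67 and -0.56 in LKO, with an input value of 1.08 in WT and -0.12 in LKO. Less input, its log2 values were 3.88 and 4.55 in WT and 4.50 and 4.41 in LKO, which overlapped. Cyp24a1, which degrades vitamin D, had a WT promoter peak only, and Cyp2r1, which activates vitamin D, had an LKO promoter peak only, at percentile 1.80.

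Cyp2u1, Cyp2f2 and Cyp2e1, the only genes of their subfamilies, had strong peaks. Cyp2u1, a fatty acid hydroxylase, had 3 shared peaks upstream, all with both LKO libraries the lower ones. The peak 7622 bp upstream had 1.57 and 2.05 in WT and 0.97 and 0.87 in LKO, a difference of -0.89 (pooled SD 0.24), and its WT input, at 1.86, was in the highest 5% of the list. The peak 4803 bp upstream had 0.94 and 1.15 in WT and 0.48 and 0.35 in LKO. The peak 9311 bp upstream had 0.28 and 0.20 in WT and -0.23 and 0.16 in LKO, where the nearest libraries of the genotypes differed by less than the pooled SD of 0.20.

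Cyp2f2, which activates naphthalene, had peaks that differed in opposite directions. The one in the last exon, 13357 bp downstream, had 0.27 and -0.33 in WT and 1.09 and 1.197 in LKO, a difference of 1.17 (pooled SD 0.31). Its input value was -0.33 in WT and 1.72 in LKO. Less input, its log2 values were 5.62 and 5.53 in WT and 4.42 and 4.33 in LKO, so LKO was the lower on that scale. The one 4527 bp downstream had 1.09 and 1.36 in WT and 0.72 and 0.95 in LKO, a difference of -0.39 (pooled SD 0.17). At Cyp2e1, the ethanol-metabolizing form, the peak in the last exon had 0.96 and 1.28 in WT and 0.31 and 1.17 in LKO, which overlapped. Cyp2j5, an epoxygenase of a subfamily with 7 coding genes, had a weaker shared peak 1121 bp upstream. It had -0.27 and -0.10 in WT and -1.12 and -1.23 in LKO, a difference of -0.99 (pooled SD 0.10). Its percentile was 67.5 in WT and 4.09 in LKO, so the LKO level lay near the lowest of that list. The input value was 1.07 in WT and -0.20 in LKO. Less input, the log2 values were 3.67 and 4.36 in WT and 4.13 and 3.82 in LKO, which overlapped.

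P450 peaks in 1 list only were weaker than shared ones. In WT the median percentile was 40.2 over 63 such peaks and 78.5 over 40 shared peaks, where all WT peaks had 29.8 and 72.2. Of the 63, 38 (60.3%, interval 48.0 to 71.5%) had a relative level above the lowest 5% of the LKO list, where 47.3% of all WT-only peaks did. Above the LKO median lay 10 of the 63 (15.9%, 8.86 to 26.8%), where 8.90% of all WT-only peaks did. Of the 9 LKO-only peaks the strongest was at the Cyp4f15 promoter, and the 8 others had percentiles from 1.76 to 13.5. Next in strength were a promoter peak of Cyp2d22, a xenobiotic-metabolizing gene, with -1.25 and -0.69, and a peak in intron 4 of Cyp2j11, with -0.36 and -1.59. A Cyp2j9 peak 31543 bp upstream, with -0.74 and -1.22, lay between WT peaks centred 332 and 343 bp away. A Cyp2a12 peak 11151 bp downstream had -1.11 and -0.87.

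Few promoter peaks recurred. Promoters, as annotated by the authors, held 16 of 103 P450 peaks in WT (15.5%, 9.79 to 23.8%), where they held 11.4% of all peaks. In LKO they held 7 of 49 (14.3%, 7.10 to 26.7%), where they held 11.3% of all peaks. In WT, 3 of the 16 promoter peaks were shared (18.8%, 6.59 to 43.0%), against 37 of 87 others (42.5%, 32.7 to 53.0%), with intervals that overlapped. Of all WT promoter peaks 50.6% were shared. The 3 were at Cyp2d26, Cyp2d13 and Cyp3a13. The other LKO promoter peaks were at Cyp4f15, Cyp2d22, Cyp2c29 and Cyp2r1 and were in LKO only. Of the strongest WT promoter peaks, those of Cyp26a1, Cyp3a25, Cyp17a1 and Cyp2a12, at percentiles 66.2, 63.6, 55.0 and 54.4, were in WT only. The Cyp3a25, Cyp3a57 and Cyp3a59 promoter peaks with the DR1 match stood at percentiles 63.6, 31.9 and 48.6, and were 90.7 to 94.7% identical to each other over 150 bases.

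The P450 peaks lay nearer to a TSS than most. Their median distance was 7545 bp in WT and 7642 bp in LKO, against 13906 and 14093 bp for all peaks. More were intergenic, 55.3% (45.7 to 64.6%) in WT and 53.1% (39.4 to 66.3%) in LKO, against 35.3 and 34.3%, and fewer intronic, 23.3% (16.2 to 32.3%) and 22.4% (13.03 to 35.9%), against 46.5 and 47.4%. Their centres fell in a long terminal repeat at 14.6% (9.03 to 22.6%) in WT, against 5.54% of all peaks, and at 14.3% (7.10 to 26.7%) in LKO, against 4.48%. Of the 84 protein-coding P450 genes of RefSeq that the rule covers, 47 (56.0%) had a WT peak and 31 (36.9%) an LKO peak, against 34.4 and 26.3% of all coding genes. The 35 with none included the drug and steroid enzymes Cyp2b9, Cyp2c50, Cyp1b1, Cyp19a1 and Cyp27b1.

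Some P450 peaks lay in duplicated sequence, and other peaks were not compared in this respect. Among the 112 distinct P450 peak positions, 29 belonged to at least 1 pair that was 80% or more identical over 150 bases. Of these 23 pairs, 22 lay within a subfamily, some of them between peaks of the same gene. The most alike were Cyp3a11 intron 7 and the peak given to Cyp3a41b, at 97.3%, then Cyp2c38 and Cyp2c39, at 96.7%, and peaks of Cyp2a22 and Cyp2a12, at 96.0%. Levels at such positions rest on the reads that could be placed uniquely.

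IR1 matches, with at most 2 mismatches within 100 bp of the centre on either strand, were found at 15 of the 103 P450 peaks in WT (14.6%, 9.03 to 22.6%) and at 11 of the 49 in LKO (22.4%, 13.03 to 35.9%). All WT peaks had 11.8% and all LKO peaks 16.2%, so both P450 shares held the value of their list within the interval. Windows 2 kb from the P450 peaks had 1 of 206 in WT and 0 of 98 in LKO. The 11 LKO matches were all at shared peaks, and 4 of the 15 WT matches were at WT-only peaks. With or without a match, 81.6% of LKO and 38.8% of WT P450 peaks were shared. The shared part of all peaks with a match is not given here, so these counts are not a trait of P450 peaks. P450 peaks with a match had a median percentile of 88.2 in WT and 83.5 in LKO, and those without had 48.6 and 41.1. Over all peaks the corresponding values were 67.3 and 48.1 in WT and 67.7 and 47.0 in LKO. Among the 40 pairs, 5 of 11 with a match and 11 of 29 without had both LKO libraries the lower ones. No P450 peak held a perfect IR1.

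The subfamilies differed in these matches. Cyp2c had 3 of 10 in WT and 3 of 5 in LKO, and Cyp3a had 3 of 21 and 3 of 9. Cyp2d had 1 of 17 and 1 of 12, and Cyp2a had 0 of 9 and 0 of 2. These counts are too small to rank the subfamilies.

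DR1 was found at 15 of the 103 in WT (14.6%, 9.03 to 22.6%) and at 9 of the 49 in LKO (18.4%, 9.98 to 31.4%), where all peaks had 12.8 and 11.9%. IR1 and DR1 share a half-site, and 2 WT peaks held both, 7622 bp upstream of Cyp2u1 and 38529 bp downstream of Cyp3a16. The repeat with 4 bases between (DR4, read by CAR, PXR and LXR) was at 5 WT peaks (4.85%) and 1 LKO peak (2.04%), where all peaks had 6.20 and 6.67% and windows 2 kb from the P450 peaks 4 of 206 and 3 of 98. The everted repeat with 6 (ER6, read by PXR) was at 3 (2.91%) and 1 (2.04%), where all peaks had 2.96 and 3.07% and those windows 1 of 206 and 0 of 98. The STAT5 element TTCNNNGAA was at 3 of 103 WT peaks (2.91%, 0.995 to 8.22%), where all WT peaks had 6.56% and windows 2 kb away from P450 peaks had 11.7% (7.96 to 16.7%). The BCL6 element TTCCTAGAA, with at most 1 mismatch, which overlaps the STAT5 element, was at 3 WT peaks (2.91%, 0.995 to 8.22%) and 0 of 49 LKO peaks, where the Wilson interval reached 7.27%. All peaks had 5.78% in WT and 5.45% in LKO, and windows 2 kb from the P450 peaks had 9.71% (6.37 to 14.5%) and 10.2% (5.64 to 17.8%). A match here is a description of letters and not a measured site.

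**Figure D5:**
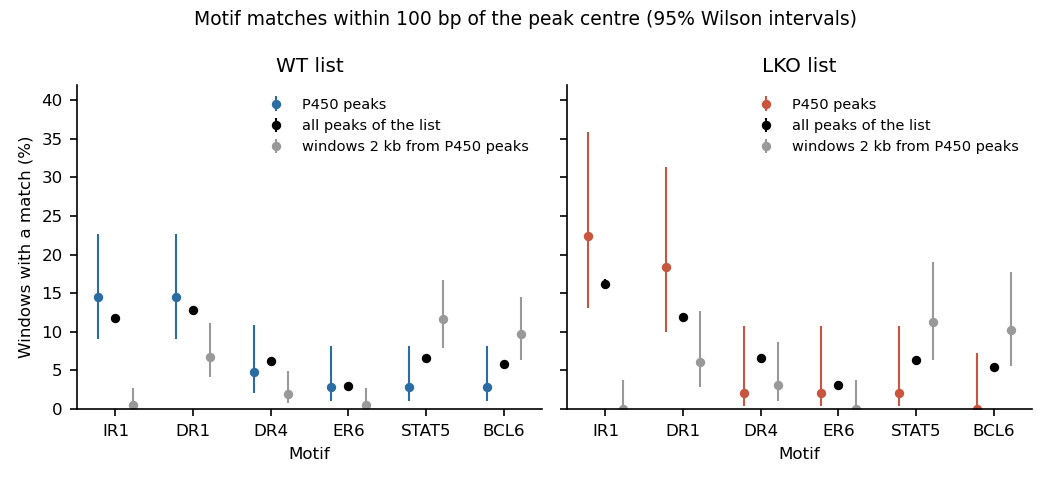
Share of windows within 100 bp of the peak centre that held each motif (vertical axis, percent, with 95% Wilson intervals), for P450 peaks (coloured), all peaks of the list (black) and windows 2 kb from P450 peaks (grey). IR1 was at 14.6% of WT and 22.4% of LKO P450 peaks, against 11.8% and 16.2% of all peaks.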

How the data were processed

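FXR ChIP-seq of male mouse liver was analysed from 1 peak table per genotype, each with 2 ChIP libraries and 1 input library. Per the labels and the study's methods, chromatin was crosslinked with DSG and formaldehyde, and 100-bp single-end reads were aligned to mm10 with Bowtie 1.2, keeping unique alignments. Reads from near-identical copies can be lost at that step. Per the file headers, HOMER 4.10 compared the ChIP libraries, pooled per genotype, to the input with DESeq2, with an adjusted p of at most 0.05 and a log2 fold of at least 1. The values per library were deposited as log2 tag values normalized within each table by total tags. That they are log2 was read from the values and is not named in the headers. The authors' Peak Score is a signal, the pooled ChIP tags per 10000000. The deposited focus ratio is a fraction, the part of a peak's tags on the proper side of its centre for their strand, and was not used in a result. The tables also hold the authors' fold changes over input and p-values, which were not used.

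Members and lists were chosen with earlier results of these data known. A peak counted as shared where at least 1 bp of it lay in a peak of the other list. Relative levels were log2 values minus the median of shared peaks in the library. The tables were normalized separately, so genotypes were not tested, and differences are given with the SD of 2 libraries. The labels do not say that libraries came from separate animals, so that spread may be technical. Libraries of a genotype were grouped by the genotype labels. Intervals are 95% Wilson intervals and cover counting error only. The rule for named peaks took the strongest of each main subfamily in each list, the 8 shared peaks of highest level, the 5 with the largest difference in each direction among those without overlap, the 5 strongest in 1 list only, all promoter peaks of a list with 12 or fewer and otherwise the 6 strongest, genes with 4 or more peaks, and Cyp1a2, Cyp2b10, Cyp2e1 and Cyp3a11. IR1 sites were to be printed at 1 mismatch or fewer. Other peaks and sites were named after their values were seen, to complete the account of a gene or subfamily. Motif matches were scored on GRCm38.p6, which has the coordinates of mm10, within 100 bp of each centre, on both strands, with at most 2 mismatches in 12 bases for the nuclear receptor repeats, 0 for STAT5 and 1 for BCL6. Gene lists came from RefSeq. Calculations were made in Python 3.11.15 with pandas 2.3.3, numpy 2.4.6, pysam 0.24.0, scipy 1.17.1 and matplotlib 3.10.9 and were tested on simulated data. Alternatives left out each library, changed the overlap, motif and reference settings, and left out weak and high-input peaks.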

Additional observations from a re-analysis of the deposited data

How the results depend on the processing

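Of 36 values recomputed for the main results under other settings, 9 moved. A count moved where it changed by over 1.5 times, a share where it left the Wilson interval, and a median where it changed by more than the median SD between libraries. Keeping peaks at or above the median strength left 55 P450 peaks in WT and 25 in LKO, of which 100% in LKO were shared. The IR1 share was 2.91% in WT and 4.08% in LKO with at most 1 mismatch, and 37.9% and 44.9% with at most 3. The median difference between genotypes was -0.68 relative to all peaks and -0.53 with the deposited values, and -0.095 without high-input peaks and -0.092 for the stronger pairs. With the deposited values 21 pairs had both LKO libraries below and 4 above (52.5% and 10.0%, against 37.3% and 12.9% of all pairs). Relative to all peaks the sign turned at Cyp2d26 1955 bp upstream, to -0.29, and at Cyp3a16 38529 bp downstream, to -0.091. Among 180 values recomputed for 30 named shared peaks, 17 had the other sign. They fell at 10 peaks, of which the 8 others had overlapping libraries. Leaving out each library in turn gave a median difference from -0.24 to -0.11, and a median percentile from 50.2 to 56.4 in WT and from 53.9 to 57.6 in LKO. The -0.11 was without LKO replicate 1. Without WT replicate 1 the counts were 23 below and 12 above (57.5% and 30.0%, against 38.6% and 41.98% of all pairs). The Peak Score ratio, and the counts of pairs below and above under other references or without a WT library, were added after the data were seen. No paired analysis was possible because each genotype had its own table and a replicate number names no animal common to both. Peak calls rest on pooled libraries, so they were not repeated without the shallow WT library, whose depth limits the weak WT peaks.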

Other observations

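A P450 gene without a peak under the naming rule had one inside its body. The peak lay in the body of Cyp46a1, the cholesterol 24-hydroxylase, and was given to Eml1 by the nearest TSS. It was shared, with relative levels of -0.69 and -1.39 in the WT libraries and 0.22 and 0.46 in the LKO libraries, and percentiles of 35.9 and 70.6. No explanation was tested.

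The P450 genes left out of the account also had peaks. The Cyp4a genes, fatty acid hydroxylases, had 9 WT peaks and none in LKO. The bile acid and cholesterol P450 genes had 19 WT peaks, of which 12 were shared (63.2%), and 12 LKO peaks, all shared.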
